A study of Homo sapiens with 6 samples.

Results

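Chromatin accessibility was followed at 10 genes of the NRF2 pathway in human naive embryonic stem (nES) cells. They were NFE2L2, which encodes NRF2, KEAP1, and 8 target genes of NRF2, NQO1, HMOX1, GCLC, GCLM, SLC7A11, TXNRD1, SRXN1 and OSGIN1. All peaks inside or within 30 kb of these genes (GENCODE 44 annotation, hg38) were taken, which gave 151 of the 171517 peaks of the deposited table. The genes were chosen with the outcome of this comparison known, because sites with the NRF2 motif had become more accessible. Fold changes and calls at these peaks are therefore given as a description, without p-values, and nothing is read from how many of them passed the thresholds.

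The cells were of the established human embryonic stem cell line H9 and were held in tt2iLGö medium, which is N2B27 basal medium with the MEK inhibitor PD0325901, the GSK3 inhibitor CHIR99021, the protein kinase C inhibitor Gö 6983 and human leukaemia inhibitory factor. All 6 libraries came from cells of this line that were grown under low oxygen, taken off mouse feeder cells and replated on laminin. In 3 libraries the medium contained 4 mM dm-αKG, a cell-permeable ester of the metabolite α-ketoglutarate, for 24 h. The 3 control libraries had 0 mM dm-αKG, and their labels name DMSO. In ATAC-seq a transposase cuts open chromatin and inserts adapters, so that read counts at a site rise with its accessibility. Values below are normalized counts, which are reads per peak scaled to a common library size. The libraries are separate samples of a single cell line, and their spread may be partly technical. In a bulk library, a site that is open in fewer cells cannot be told apart from a site that is less open in each cell.

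NRF2 is a transcription factor of the cap'n'collar family. In unstressed cells KEAP1 holds it in the cytoplasm and passes it to a CUL3 ubiquitin ligase for degradation. Electrophiles and oxidants modify cysteines of KEAP1, NRF2 then accumulates, pairs with a small MAF protein and binds antioxidant response elements (AREs) near genes for glutathione synthesis, thioredoxin reduction, quinone reduction and haem breakdown. The ARE core was searched as TGACNNNGC and the NRF2 consensus as TGACTCAGC, in either orientation, within the central 200 bp of every peak. The consensus contains the ARE core and also a match to TGANTCA, the AP-1 motif of the JUN and FOS factors, so a match alone does not tell these factors apart.

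The NRF2 consensus was present in 3 of the 151 peaks, and these are shown because the genes were chosen for that motif. The sequences of the NQO1 and GCLM sites below are from the plus strand of hg38 and show the 200 bp searched, with the consensus in capitals (GCTGAGTCA is its reverse complement). The NQO1 site (chr16:69726900-69727099) lay 332 bp upstream of the start of NQO1 and 13 bp from that of its divergent transcript NQO1-DT. The HMOX1 site lay upstream of HMOX1, outside its promoter. The GCLM site (chr1:93878544-93878743) lay 6455 bp beyond the end of GCLM and 512 bp from the start of its neighbour DNTTIP2.
NQO1 site: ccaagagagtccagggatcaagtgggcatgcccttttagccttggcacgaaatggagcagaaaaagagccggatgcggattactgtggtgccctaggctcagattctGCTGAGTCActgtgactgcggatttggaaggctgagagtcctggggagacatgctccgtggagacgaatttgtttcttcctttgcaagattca
GCLM site: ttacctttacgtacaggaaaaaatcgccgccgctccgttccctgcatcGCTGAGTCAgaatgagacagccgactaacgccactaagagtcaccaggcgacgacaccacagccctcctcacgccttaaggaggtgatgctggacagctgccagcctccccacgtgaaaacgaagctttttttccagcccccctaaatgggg

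The next 2 sites, at GCLC and OSGIN1, had an AP-1 match (capitals) without the full NRF2 consensus and are shown because their counts were also higher with dm-αKG. The GCLC match reads on as TGAATCAGC, which differs from the NRF2 consensus TGACTCAGC only by an A for a C. The GCLC site (chr6:53615768-53615967) lay in an intron, 1102 bp from an upstream start of GCLC that lies outside the RefSeq gene, and 603 bp from the start of the non-coding gene LINC01564. The OSGIN1 site (chr16:83953013-83953212) lay 126 bp upstream of a start of OSGIN1, inside an intron of a longer annotated transcript.
GCLC site: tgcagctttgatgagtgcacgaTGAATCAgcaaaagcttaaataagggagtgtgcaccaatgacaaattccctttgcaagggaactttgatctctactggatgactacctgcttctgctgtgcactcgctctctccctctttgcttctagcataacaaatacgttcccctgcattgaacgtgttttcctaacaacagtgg
OSGIN1 site: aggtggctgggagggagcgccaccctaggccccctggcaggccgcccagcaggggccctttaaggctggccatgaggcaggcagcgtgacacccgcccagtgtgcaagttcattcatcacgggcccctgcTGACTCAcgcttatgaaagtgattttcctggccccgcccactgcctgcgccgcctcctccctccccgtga

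Over all 171517 peaks, edgeR's quasi-likelihood test called 0.782% more accessible and 1.96% less accessible with dm-αKG (Benjamini-Hochberg adjusted p below 0.01 and a log2 fold change above 1 or below -1). At the same thresholds, edgeR called 1342 and 3365 peaks and DESeq2 793 and 2479. Without the limit on size, 3.34% were higher and 6.54% were lower. Among the 151 peaks of the NRF2 genes, 2 were more accessible, 2 were less accessible, 6 were higher and 12 were lower. The log2 fold change was above 0 at 83 peaks (51.2% of all peaks lay above 0) and below 0 at 68, and lay between -1.69 and 1.73. Its median was 0.04, against 0.01 for all peaks. All dm-αKG libraries lay above all controls at 30 of the 151 peaks (15.5% of all peaks did so) and below them at 19 (16.9% of all peaks). The 2 sets are unlike, since 84 of the 151 peaks lay within 1 kb of a start of any gene, against 61874 of 171517. Those 61874 peaks had a median of 0.09, with 12573 above all controls. The other 109643 had a median of -0.06, with 14021 above all controls. The peaks of each gene, plotted by log2 fold change, show most of them near 0, with the GCLC and GCLM sites at the top and 2 TXNRD1 sites at the bottom.

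**Figure D1:**
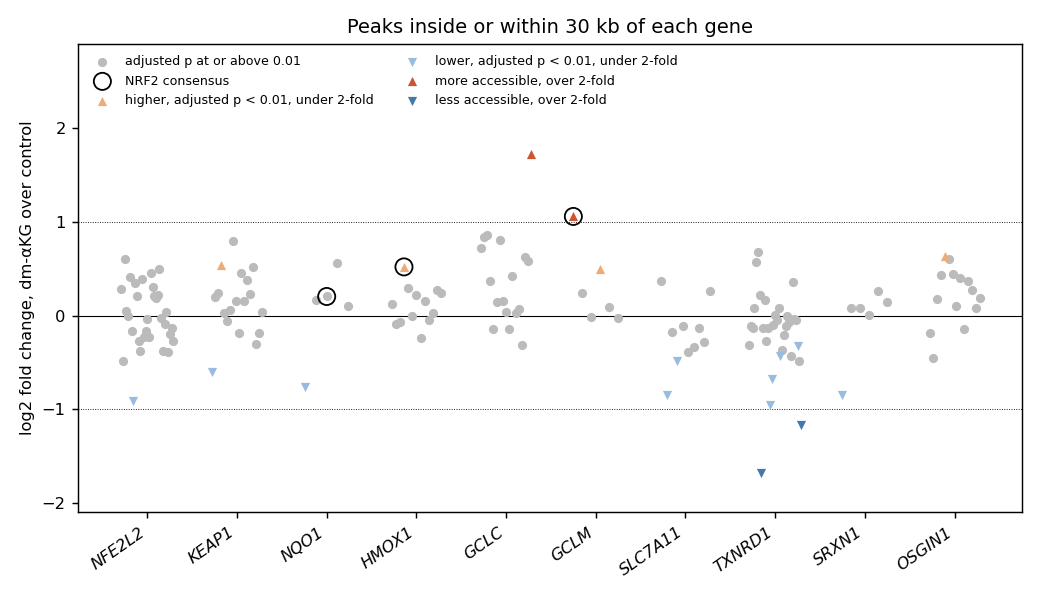
Log2 fold change (dm-αKG over control) of each of the 151 peaks, grouped by gene, with dotted lines at 1 and -1; triangles are peaks with an adjusted p below 0.01 and circles mark the 3 peaks with the NRF2 consensus. The GCLC peak at 1.73 and the GCLM peak at 1.06 lie above the upper line, and the TXNRD1 peaks at -1.69 and -1.17 lie below the lower line.

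Of the peaks of the regulator genes, 31 at NFE2L2 and 18 at KEAP1, 0 were more or less accessible. Over all peaks 0.782% and 1.96% were, so 0 is near the background. NFE2L2, the gene of NRF2 itself, had 31 peaks, of which 0 were higher and 1 was lower (3.34% and 6.54% of all peaks). At its promoter peak, 18 bp from a transcript start, normalized counts were 231.6, 230.2 and 215.0 in control and 214.4, 207.8 and 241.0 with dm-αKG. The treatments overlapped, with a log2 fold change of -0.04 (SE 0.11). The lower peak lay at the far end of the GENCODE span of NFE2L2 and 2092 bp from a start of HNRNPA3, a neighbour that encodes an RNA-binding protein. It had 208.4, 162.8 and 229.6 normalized counts in control and 109.0, 112.9 and 92.8 with dm-αKG (log2 fold change -0.91, SE 0.14). All 3 dm-αKG libraries were below the lowest control there, and the change passed 2-fold without control replicate 2 (-1.04) and with thinned libraries (-1.02).

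KEAP1, the inhibitor of NRF2, had 18 peaks, with 1 higher and 1 lower (3.34% and 6.54% of all peaks). Its promoter peak held 207.5, 210.4 and 159.1 normalized counts in control and 213.0, 218.1 and 217.0 with dm-αKG. The dm-αKG values were the higher ones but close to 2 of the 3 controls, and the log2 fold change was 0.15 (SE 0.12, adjusted p at or above 0.01). Both KEAP1 peaks with an adjusted p below 0.01 lay nearer to PDE4A, a phosphodiesterase gene, than to KEAP1. The higher of them, 2735 bp from a PDE4A start, had 105.5, 139.7 and 136.0 normalized counts in control and 175.7, 201.4 and 178.1 with dm-αKG (log2 fold change 0.54, SE 0.14). The lower of them, 1690 bp from a PDE4A start, had 216.4, 176.7 and 194.3 in control and 117.6, 121.9 and 152.7 with dm-αKG (log2 fold change -0.60, SE 0.13), and its adjusted p was no longer below 0.01 without control replicate 1 or dm-αKG replicate 1 (-0.52 in each case). These neighbours in the same window thus moved in opposite directions.

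Glutathione synthesis was represented by GCLC and GCLM, the catalytic and modifier subunits of glutamate-cysteine ligase, and by SLC7A11, the cystine transporter that supplies cysteine for it. The peak with the highest log2 fold change of the 151 was the GCLC site. Its normalized counts were 17.9, 19.7 and 7.29 in control and 43.7, 75.7 and 37.4 with dm-αKG. The treatments did not overlap, and the log2 fold change was 1.73 (SE 0.31). The peak was in the authors' peak list for dm-αKG and not in that for control, and it rested on few reads, with 20, 24 and 6 counts in control and 61, 59 and 25 with dm-αKG. At the main GCLC promoter, 96 bp from a start, counts were 474.0, 460.3 and 425.1 in control and 452.5, 475.9 and 461.0 with dm-αKG. These values overlapped, with a log2 fold change of 0.02 (SE 0.08).

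The GCLM site with the NRF2 consensus had 17.0, 21.4 and 30.4 normalized counts in control and 34.4, 57.7 and 52.4 with dm-αKG. All dm-αKG values lay above the controls, and the log2 fold change was 1.06 (SE 0.29). This site too was only in the dm-αKG peak list, with 19, 26 and 25 counts in control and 48, 45 and 35 with dm-αKG. Its call was the least stable of those over 2-fold. It was lost when control replicate 1 (log2 fold change 0.89), or control replicate 2 (1.02) was left out, and likewise without dm-αKG replicate 2 (0.90) or replicate 3 (0.99). It was also lost with DESeq2 and with libraries thinned to the smallest total. The promoter of GCLM held 2 neighbouring peaks that differed. The stronger, 261 bp upstream of a start, had 570.6, 600.9 and 691.1 normalized counts in control and 569.4, 641.4 and 622.7 with dm-αKG, which overlapped (log2 fold change -0.02, SE 0.08). The weaker, 10 bp from the start, had 113.6, 126.6 and 97.2 in control and 171.4, 169.3 and 133.2 with dm-αKG, with no overlap (log2 fold change 0.49, SE 0.14, adjusted p below 0.01).

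SLC7A11 had 10 peaks, of which 8 had a log2 fold change below 0, 0 were higher and 2 were lower. Over all peaks, 51.2% lay above 0, 3.34% were higher and 6.54% were lower. The peak at its main start held 385.5, 439.8 and 386.3 normalized counts in control and 357.8, 374.6 and 375.7 with dm-αKG. All 3 dm-αKG values were below the controls by a small margin, with a log2 fold change of -0.14 (SE 0.09) and an adjusted p at or above 0.01. At an internal start the counts were 358.7, 356.8 and 311.0 in control and 212.3, 260.4 and 278.4 with dm-αKG (log2 fold change -0.48, SE 0.10). The other lower peak was intronic, 6559 bp from the nearest SLC7A11 start, with 70.7, 51.0 and 53.5 in control and 35.1, 35.9 and 23.9 with dm-αKG (log2 fold change -0.85, SE 0.25). It was in the control peak list only, and its adjusted p stayed below 0.01 in 3 of 16 alternative settings, and in none of the 6 that left out a library (log2 fold changes from -0.95 to -0.68).

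Thioredoxin reduction was represented by TXNRD1, thioredoxin reductase, and SRXN1, sulfiredoxin, which restores overoxidized peroxiredoxins. TXNRD1 had 31 peaks, of which 23 had a log2 fold change below 0, 0 were higher and 6 were lower, and it held both of the less accessible peaks. Over all peaks, 51.2% lay above 0, 3.34% were higher, 6.54% were lower and 1.96% were less accessible. The lowest log2 fold change of the 151 peaks was at an intronic TXNRD1 site, which had 105.5, 92.9 and 75.3 normalized counts in control and 25.1, 28.2 and 34.4 with dm-αKG. The treatments were far apart, with a log2 fold change of -1.69 (SE 0.23), and the peak was in the control peak list only, where its signal was 20.6 times the background. The other site, 21178 bp beyond the end of TXNRD1, had 185.1, 211.3 and 195.6 in control and 95.4, 75.7 and 88.3 with dm-αKG (log2 fold change -1.17, SE 0.14). It held an AP-1 match. Both TXNRD1 calls stayed in all 16 alternative settings that gave them a value, leaving out each library included.

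The TXNRD1 starts gave mixed values. The strongest start peak had 561.7, 521.2 and 487.1 normalized counts in control and 488.3, 514.4 and 526.9 with dm-αKG, which overlapped (log2 fold change -0.05, SE 0.08). Another start peak, 79 bp from its start, had 488.3, 479.2 and 450.6 in control and 335.6, 356.6 and 365.2 with dm-αKG, all lower (log2 fold change -0.43, SE 0.08). A pair of neighbouring peaks inside the gene was lower as well, with log2 fold changes of -0.96 (SE 0.19) and -0.68 (SE 0.15), and so was a peak 16929 bp beyond its end (-0.33, SE 0.08). SRXN1 had 6 peaks. Its promoter peak had 290.7, 254.8 and 291.5 normalized counts in control and 296.2, 274.5 and 312.8 with dm-αKG, which overlapped (log2 fold change 0.08, SE 0.10). A peak 27324 bp beyond the end of SRXN1, nearer to TCF15, a mesodermal transcription factor gene, had 97.5, 110.2 and 117.8 in control and 60.2, 57.7 and 61.4 with dm-αKG (log2 fold change -0.85, SE 0.18).

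NQO1, the quinone reductase, and HMOX1, haem oxygenase 1, each held a peak with the NRF2 consensus. The NQO1 site had 61.7, 78.1 and 91.1 normalized counts in control and 88.2, 94.9 and 79.3 with dm-αKG. The values overlapped, with a log2 fold change of 0.20 (SE 0.18) and an adjusted p at or above 0.01. The promoter peak of NQO1, 28 bp from its start, had 626.1, 607.5 and 626.8 in control and 651.1, 717.1 and 721.5 with dm-αKG. All dm-αKG values were higher there by a small margin (log2 fold change 0.16, SE 0.07, adjusted p at or above 0.01). An intronic NQO1 peak, 2517 bp from its start, had 81.4, 131.5 and 128.8 in control and 51.6, 71.8 and 85.3 with dm-αKG (log2 fold change -0.76, SE 0.19). There the highest dm-αKG value exceeded the lowest control, although its adjusted p was below 0.01. That was lost without control replicate 2 (-0.62) or 3 (-0.67), without dm-αKG replicate 1 (-0.53), and with DESeq2 and with thinned libraries.

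The HMOX1 site had 146.7, 161.9 and 171.3 normalized counts in control and 220.9, 232.2 and 235.0 with dm-αKG. The treatments did not overlap, and the log2 fold change of 0.52 (SE 0.12) was under 2-fold. The adjusted p stayed below 0.01 in 15 of 16 alternative settings, and was lost without control replicate 1, where the log2 fold change was 0.46. At the HMOX1 promoter, counts were 240.6, 243.3 and 240.5 in control and 254.6, 224.5 and 215.5 with dm-αKG, which overlapped (log2 fold change -0.04, SE 0.11).

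OSGIN1, an oxidative stress-induced growth inhibitor gene, had 14 peaks, of which 11 had a log2 fold change above 0 and 1 was higher (51.2% and 3.34% of all peaks). That was the OSGIN1 site, with 78.7, 73.2 and 63.2 normalized counts in control and 113.3, 123.2 and 97.3 with dm-αKG, without overlap (log2 fold change 0.63, SE 0.17). Its adjusted p stayed below 0.01 in 7 of 16 alternative settings. Of the 6 libraries, only dm-αKG replicate 3 could be left out without losing it (0.56 to 0.71 over these fits). The promoter peak, 381 bp downstream of a start, had 131.5, 136.5 and 154.3 in control and 208.0, 183.4 and 172.1 with dm-αKG. These did not overlap either, but the adjusted p was at or above 0.01 (log2 fold change 0.44, SE 0.13).

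**Figure D2:**
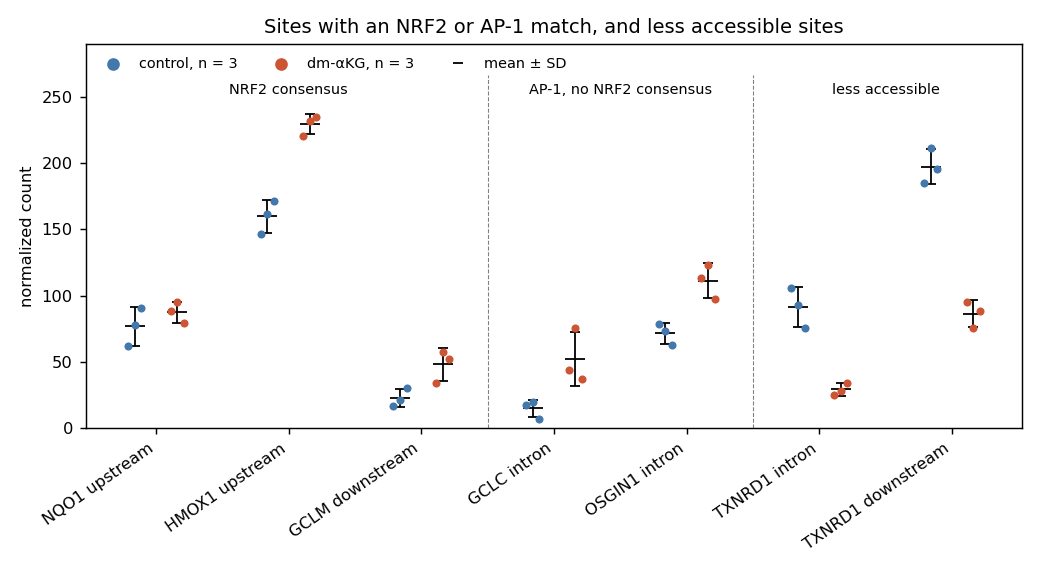
Normalized counts per library (points), with mean and SD as bars (n = 3 per treatment), at the 3 peaks with the NRF2 consensus, at the GCLC and OSGIN1 peaks with an AP-1 match only, and at the 2 less accessible TXNRD1 peaks, the latter of which also has an AP-1 match. The HMOX1 values of 220.9 to 235.0 with dm-αKG lie above all controls, while those of the NQO1 site overlap.

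The promoter peaks of the 10 genes, each the peak of highest mean count within 1 kb of a start of the gene, were open in both treatments. In control they ranked between the 76.8th percentile, at OSGIN1, and the 98.5th, at GCLM and NQO1, of all peaks by mean normalized count. Of the 10, 0 had an adjusted p below 0.01, and 5 had a log2 fold change above 0. Over all 61874 peaks within 1 kb of a start, 4.23% were higher, 2.72% were lower and 63.4% had a log2 fold change above 0, so that 0 of 10 is near the background. The median log2 fold change of the 10 was 0.00047, against 0.09 over all such peaks. These sets are unlike, since the 10 are the strongest peak of each gene, with median control counts of 341.4 against 92.5. All 47 peaks within 1 kb of a start of the gene itself had a median log2 fold change of 0.08. Of the 47, 68.1% lay above 0, and 2 were higher and 2 lower (4.3% each). At the 10 promoter peaks, all dm-αKG values were above all controls at KEAP1, NQO1 and OSGIN1 and below them at SLC7A11.

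**Figure D3:**
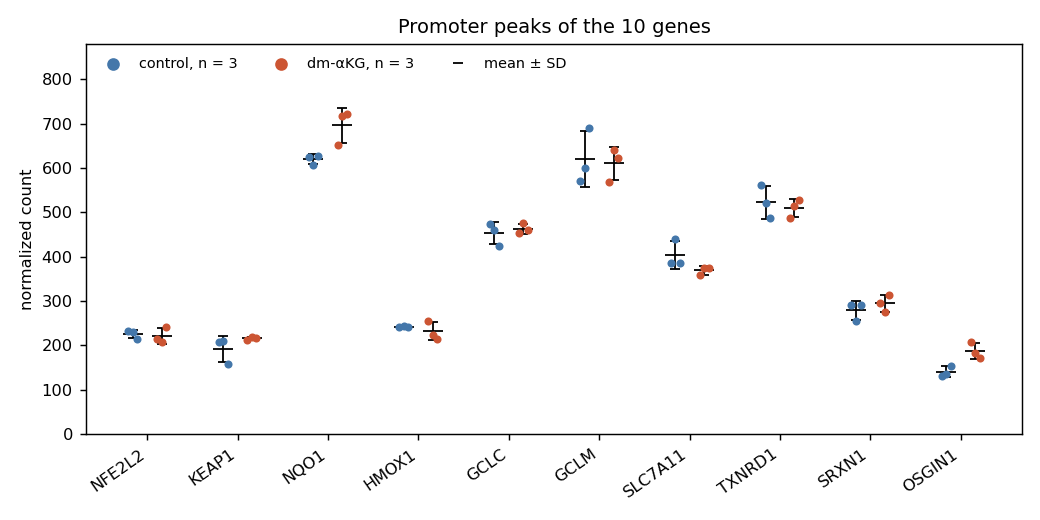
Normalized counts per library at the promoter peak of each of the 10 genes, with mean and SD as bars (n = 3 per treatment, linear axis from 0). Means run from 140.7 at OSGIN1 to 620.9 at GCLM in control, and the points of both treatments overlap at 6 of the 10 genes.

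Of the 151 peaks, 47 lay within 1 kb of a start of the gene itself, 37 near a start of another gene and 67 beyond 1 kb of any start. Both more accessible peaks belonged to the 37 near a start of another gene. Both less accessible peaks, and 10 of the 12 lower ones, belonged to the 67 away from any start, where 1 peak was higher. Over all 109643 peaks away from a start, 2.84% were higher and 8.69% were lower. By place in the annotation, 23 of the 151 peaks had their centre in an exon, 59 in an intron, 36 upstream and 33 downstream of the gene.

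Summed over all peaks of a gene, normalized counts differed most in proportion at OSGIN1 and SLC7A11. The OSGIN1 sums were 1031, 996 and 1069 in control and 1241, 1198 and 1226 with dm-αKG (log2 ratio of means 0.24). The TXNRD1 sums were 5255, 5171 and 5006 in control and 4516, 4598 and 4531 with dm-αKG (log2 ratio -0.18), and OSGIN1 and TXNRD1 did not overlap between treatments. The sums also lay apart, with dm-αKG higher, at KEAP1 (log2 ratio 0.12) and HMOX1 (0.11). Over all 19324 protein-coding genes with a peak, the sums of dm-αKG were all above control at 27.3% and all below at 17.2%. SLC7A11 had 1665, 1670 and 1523 in control and 1341, 1383 and 1525 with dm-αKG (log2 ratio -0.19), and its highest dm-αKG value exceeded its lowest control. The sums at NFE2L2, NQO1, GCLC, GCLM and SRXN1 also overlapped.

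**Figure D4:**
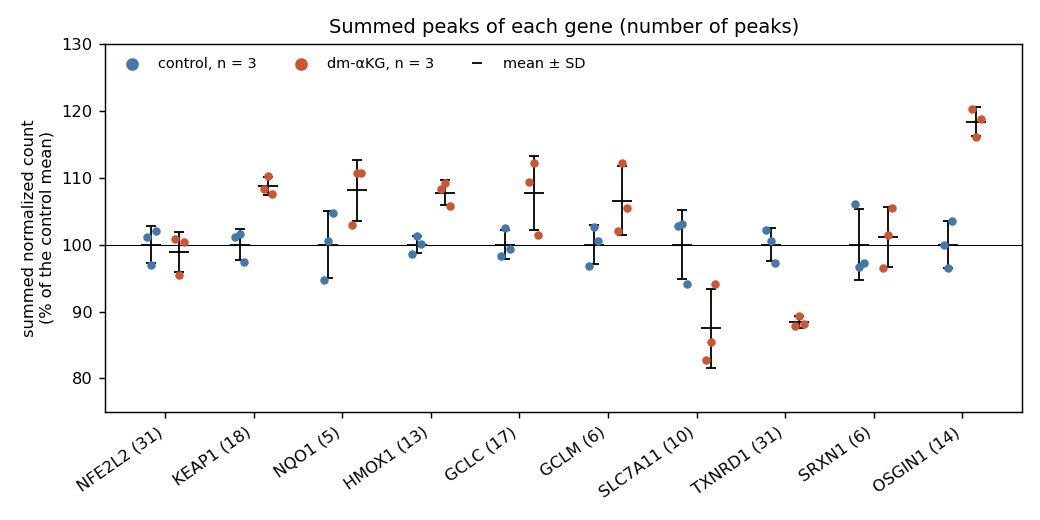
Summed normalized counts of all peaks of each gene per library, as a percentage of the control mean, with mean and SD as bars (n = 3 per treatment) and the number of peaks in parentheses; the axis does not start at 0. OSGIN1, KEAP1 and HMOX1 lie above their controls and TXNRD1 lies below.

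The ARE core occurred in 28 of the 151 peaks (18.5%), against 9.57% of all peaks, and the NRF2 consensus in 3 (1.99%), against 0.719%. The AP-1 motif was in 17 (11.3%), against 6.33%, and the ARE core read backwards without complementing (CGNNNCAGT), which has the same base composition, was in 10 (6.62%), against 4.53%. The genes were picked as ARE targets, so these shares describe the choice. The median log2 fold change of the 28 peaks with the ARE core was 0.20, against 0.04 for all 16407 such peaks. With GC offsets these medians were 0.13 and 0.0064. Without the 3 consensus sites the median was 0.15 over 25 peaks, of which 0 had an adjusted p below 0.01. Over all 15173 peaks with the core and no consensus it was 0.03, with 3.9% higher and 6.1% lower. The largest log2 fold change among these 25 was 0.57 (SE 0.19), at an upstream start of TXNRD1. Peaks with the reversed core had a median of 0.02 among the 10 genes and 0.06 overall. The reversed core starts with CG, and all peaks holding it had a median GC content of 62.5%, against 56.5% with the ARE core. These sets are therefore not matched.

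Over the whole table, 1234 peaks held the NRF2 consensus, of which 66 (5.35%) were more accessible and 9 were less accessible, with a median log2 fold change of 0.15. The HMOX1 and GCLM sites, at 0.52 and 1.06, lay above that median, and the NQO1 site, at 0.20 (SE 0.18), lay near it. These sites are among the 1234 peaks, and the genes were chosen because sites with this motif had opened. Their place relative to the median is therefore a description only. The 9627 peaks with an AP-1 match and no NRF2 consensus had a median of 0.03, with 2.13% more accessible and 2.04% less accessible. Of these peaks, 5.8% were higher and 6.7% were lower. Of the 151 peaks, 14 belong to this second class, of which 1 was more accessible, 1 less accessible, 2 higher and 1 lower. The GCLC and OSGIN1 sites are among the 14, and so is the less accessible site beyond the end of TXNRD1, at -1.17.

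**Figure D5:**
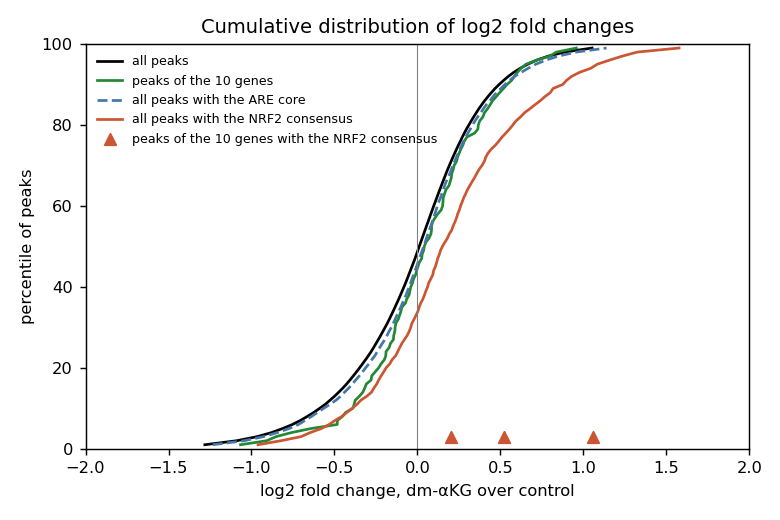
Cumulative distribution of log2 fold changes (dm-αKG over control) for all peaks, all peaks with the ARE core, all peaks with the NRF2 consensus and the 151 peaks of the 10 genes, with triangles for the 3 consensus sites among them. The line of NRF2 consensus peaks lies to the right of all peaks and of peaks with the ARE core, with a median of 0.15. The median of the 151 peaks was 0.04, against 0.01 for all peaks. Their lower tail lies to the right of all peaks, with a 10th percentile of -0.39 against -0.59, close to the consensus peaks. Of the 151 peaks, 84 lay within 1 kb of a start, against 61874 of all 171517 peaks.

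In the RefSeq promoter sequences (GRCh38.p14, 250 bases before to 50 after each start), 8 of the 10 genes had an entry. The ARE core was in those of GCLM, KEAP1 and TXNRD1 (13.4% of all 35116 promoters hold it). The AP-1 motif was in that of OSGIN1 (7.71% of all). The NRF2 consensus was in 0 of the 8 (0.561% of all).

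A wider list of 39 other genes of the pathway had 609 peaks by the same distance rule, and none of these was among the 151. The genes were taken from general knowledge and not by how they moved. The list was still made with earlier results of these data known, for a pathway picked because its motif sites had opened. Its shares are therefore a description only. Of the 609, 8 (1.31%) were more accessible and 5 (0.821%) less accessible, against 0.782% and 1.96% of all peaks, and 42 (6.90%) were higher and 23 (3.78%) lower, against 3.34% and 6.54%. The 8 became 2 without control replicate 1, 4 without dm-αKG replicate 1 or 2 and 4 with DESeq2. Among the 8 partners and regulators, 3 peaks were more accessible, all in the window of MAFG, which encodes a small MAF partner of NRF2. The MAFG window had 7 higher peaks of 23 (3.34% of all peaks were higher). Its more accessible peaks had log2 fold changes of 1.70 (SE 0.30), 1.10 (SE 0.26) and 1.13 (SE 0.19), and the first 2 of these lay at starts of the neighbour ALYREF. The third lay 1299 bp from a start of another neighbour, SIRT7, and 10581 bp from a MAFG start. The MAFG start itself, which holds the NRF2 consensus, had 111.8, 138.1 and 119.0 normalized counts in control and 206.5, 201.4 and 145.2 with dm-αKG, which did not overlap (log2 fold change 0.60, SE 0.14). SQSTM1, whose protein p62 binds KEAP1, had 2 less accessible peaks (-1.41, SE 0.22, and -1.02, SE 0.27). At its own consensus site, 683 bp from a start, the log2 fold change was 0.32 (SE 0.11, adjusted p at or above 0.01).

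Of the 10 further glutathione genes, GSR (glutathione reductase) and GPX2 (a glutathione peroxidase) had 1 more accessible peak each, with log2 fold changes of 1.01 (SE 0.29) and 1.47 (SE 0.34). The GSR peak lay 603 bp from a start of the neighbour UBXN8, and the GPX2 peak 5095 bp from one of CHURC1-FNTB. The GPX2 values overlapped between treatments, with 9.84, 18.1 and 17.0 normalized counts in control and 40.9, 64.1 and 18.0 with dm-αKG. GSS, glutathione synthetase, had 1 less accessible peak 13 bp from a start, with 64.4, 57.5 and 94.7 in control and 30.8, 19.2 and 20.96 with dm-αKG (log2 fold change -1.52, SE 0.25). ABCC4, an export pump, had 2 less accessible peaks (-1.25, SE 0.18, and -1.14, SE 0.25). The 3 thioredoxin genes (TXN, PRDX1 and TXNIP) had 52 peaks, of which 0 passed 2-fold and 2 were lower.

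Among the 6 genes for NADPH supply, 1 of 97 peaks was more accessible, 356 bp upstream of a start of TALDO1 (transaldolase), with 60.8, 69.0 and 59.5 normalized counts in control and 155.6, 128.3 and 86.8 with dm-αKG (log2 fold change 1.00, SE 0.18). The 6 genes for iron and haem had 89 peaks, with 14 (15.7%) higher and 1 (1.12%) lower, against 3.34% and 6.54% of all peaks. This was the highest share of higher peaks among the groups. Higher and lower shares were 6.54% and 1.96% for partners and regulators, and 5.70% and 6.96% for glutathione. They were 0% and 3.85% for thioredoxin, 7.22% and 5.15% for NADPH, and 3.33% and 1.67% for detoxification. Of the 14 iron and haem peaks, 7 lay in the window of BLVRB, which held 23 peaks. The 14 became 5 with DESeq2, 9 with GC offsets. Leaving out control replicate 1 gave 7 and replicate 3 gave 8, and leaving out dm-αKG replicate 1 gave 5 and replicate 2 gave 9. More accessible peaks lay in the windows of FTH1, the ferritin heavy chain, 3779 bp from a start (log2 fold change 1.19, SE 0.29), and of BLVRB, biliverdin reductase B, 24887 bp from a start of BLVRB (1.02, SE 0.21). The 6 genes for detoxification had 60 peaks, of which 0 passed 2-fold. The NRF2 consensus was in 12 of the 609 peaks, and 0 of the 12 passed 2-fold. Over all 1234 peaks with the consensus, 5.35% were more accessible, 0.729% less accessible and 12.8% higher. At 2 of the 12, counts were higher with an adjusted p below 0.01, MAFG and ABCB6, a porphyrin transporter (log2 fold change 0.36, SE 0.10). The others, among them those near GSTP1, SLC3A2, ME1, MAFK, NQO2, SQSTM1, FTH1, BLVRB and MAFG, had log2 fold changes between -0.27 and 0.39.

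The last 2 peaks inside the limit of 30 kb, 29605 bp from OSGIN1 and 29327 bp from HMOX1, had log2 fold changes of 0.19 and 0.12. The nearest 2 outside, 30379 bp from SLC7A11 and 30554 bp from NFE2L2, had 0.29 and -0.89.

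The libraries held between 13025674 and 26828622 counts in peaks, of which the 151 peaks took between 0.105% and 0.107%. Scaling factors lay between 0.9914 and 1.0142. In control, the promoters of the naive pluripotency genes POU5F1, NANOG, KLF17, DPPA5 and SUSD2 had between 271.3 and 746.4 normalized counts, and DPPA3 had no peak within 1 kb of a start. Markers of other states were not at 0: promoters of primed pluripotency genes (ZIC2, SFRP2, DUSP6) had between 113.1 and 468.6, of trophoblast genes (GATA3, CDX2, KRT7) between 132.7 and 262.6, and of fibroblast genes (COL1A1, COL1A2, THY1) between 111.8 and 197.6. Promoter accessibility thus did not separate these lists completely. Between treatments, log2 fold changes at these 14 promoters lay between -0.42 and 0.33, and their part in the values above was not tested.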

How the data were processed

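ATAC-seq libraries of nES cells, 3 control and 3 with dm-αKG, were grouped by the treatment in the labels. Per the labels and the methods, paired-end reads were mapped by the authors to hg38 (Bowtie 2, ENCODE pipeline), and MACS2 called peaks per replicate, with a separate run for each treatment. They deposited 1 list of reproducible peaks per treatment, with a score, a fold enrichment (ratio of signal to background), a q-value as −log10 and the summit. These lists served only for list membership, fold enrichment and summits. Peaks were then shortened to 200 bp around summits and merged, and the authors deposited raw read counts per merged peak and library.

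Counts of all 171517 peaks were tested with edgeR 4.0.16 in R 4.3.3 (TMM scaling, quasi-likelihood fit, treatment as the only term, no filter on low counts, Benjamini-Hochberg adjustment). The thresholds are those of the study, which used DESeq2. Standard errors are absolute log2 fold changes over √F. No permutation test was used, since 3 libraries against 3 cannot give a two-sided p below 0.10. The members, the gene lists and the motifs were chosen with earlier results of these data known. Peaks named are, for each gene, the promoter peak and the peak of largest change with an adjusted p below 0.01, and all peaks over 2-fold or with the NRF2 consensus. Other peaks with an adjusted p below 0.01 were added after their values were seen. Genes and starts came from GENCODE 44, whose spans of NFE2L2, GCLC and OSGIN1 are longer than those of RefSeq. Motifs were searched with pysam 0.24.0 in Python 3.11.15. Alternatives used DESeq2 1.42.0, limma 3.58.1, other scalings, GC offsets, a minimum of 10 counts, thinning, a replicate block, other windows or RefSeq spans, or left out each library. Replicate numbers were not used to pair the libraries in the main fit. A few items are not reported here. Depth is given as counts in peaks, and single sites of about 20 counts are the least precise.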

Additional observations from a re-analysis of the deposited data

How the results depend on the processing

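Among the 151 peaks, the 2 more accessible peaks fell to 1 with DESeq2, with at least 10 counts in every library (which removes the GCLC site), with libraries thinned to the smallest total and with RefSeq gene spans (which exclude the GCLC site), and numbered 1 to 3 with each library left out (1 without control replicate 1 or 2, or without dm-αKG replicate 2). Over all peaks, DESeq2 also called fewer more accessible, 793 against 1342. The 2 less accessible peaks became 1 of 118 within 10 kb and 5 of 328 within 100 kb (1.96% of all peaks were less accessible). They numbered 2 to 3 with each library left out. The 6 higher peaks became 2 with DESeq2, 2 with thinning and 18 of 328 within 100 kb (3.34% of all peaks were higher). They numbered 1 to 11 with each library left out (1 without control replicate 1, 2 without dm-αKG replicate 2, 11 without dm-αKG replicate 3). The 12 lower peaks became 6 with thinning, and 7 to 13 with each library left out (7 without dm-αKG replicate 1). In the 39 other genes, the 8 more accessible peaks became 4 with DESeq2 and 2 to 8 with each library left out (2 without control replicate 1, 4 without dm-αKG replicate 1 or 2). The settings for the 39 genes and for the iron and haem genes, the RefSeq spans and those for all peaks with the ARE core were added after seeing the data. The median log2 fold change of the 10 promoter peaks, 0.00047, became -0.075 with GC offsets, -0.077 with the replicate block and GC offsets, and 0.050 with thinning, and lay between -0.00022 and 0.042 with each library left out, so it has no stable sign. The median of the 28 peaks with the ARE core, 0.20, became 0.13 with GC offsets, 0.13 with the replicate block and GC offsets, and 0.52 with the NRF2 consensus in its place, and lay between 0.15 and 0.23 with each library left out. Where no construction is given, the cause was not tested.

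Over all peaks, deviations of same-numbered libraries from their treatment means correlated at -0.016, -0.0014 and 0.013, so no pairing by number was seen. These values cannot exclude a small shared effect. With the replicate block, 2 peaks were more accessible, 2 less accessible, 8 higher and 12 lower.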
